A study of Mus musculus with 6 samples.

Results

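Hedgehog signalling was examined in the cortex of 6 mouse embryos through 10 genes: the receptor Ptch1, the signal transducer Smo, the co-receptors Gas1, Cdon and Boc, the inhibitor Sufu, the transcription factors Gli1, Gli2 and Gli3, and Intu, a gene of primary cilia. All 10 had a row among the 22180 genes with a row of 1 gene symbol, and all 10 passed the filter on dim genes that left 16724 genes. The set was chosen by its pathway and, for Intu, by the difference between mutant and control cortex itself, in which Intu and the nearby gene Hspa4l had both stood out. Differences of these 11 genes between the groups are therefore given as a description, without p-values. Intu was 1.75-fold higher in mutant cortex and Ptch1 1.33-fold higher, while the other 8 genes differed by less than 0.25 on the log2 scale.

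The 3 mutant embryos carried loxP-flanked Lats1 and Lats2 and a Nestin-Cre transgene (double knock-out, DKO), and the 3 others are labelled only as control, with no genotype. All were untreated and were taken at stage E12.5, and the labels state that every sample is a separate embryo. Nestin-Cre recombines in neural progenitors and their progeny, so that vessel, blood and meningeal cells in the dissected tissue are not its usual targets. Lats1 and Lats2 are the Hippo pathway kinases that hold back the coactivators YAP and TAZ, which act through TEAD transcription factors. Values are log2 signals of Affymetrix whole-transcript arrays, 1 array per embryo, and the number of arrays (3 per group) limits their precision.

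Hedgehog ligands bind Ptch1 together with Gas1, Cdon or Boc, which releases Smo from inhibition. Smo then enters the primary cilium, and Sufu lets go of the Gli proteins, which otherwise are processed in large part to repressors. Gli1 and Ptch1 are themselves induced by the pathway and are its usual readouts. In the telencephalon Hedgehog signals specify ventral fates, and Gli3 repressor protects dorsal fates such as the cortex. Intu belongs to the ciliogenesis and planar polarity effectors (CPLANE), a complex that helps build cilia, and its loss disturbs Hedgehog signalling and Gli3 processing.

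The targeted genes were inspected first. Lats1 stood at 8.81, 8.34 and 8.98 in controls 1 to 3 and at 7.82, 7.83 and 7.74 in DKO 1 to 3, a log2 difference of -0.91 ± 0.14 (SE; limma adjusted p 0.0189), and every DKO value lay below every control value. The call was lost when control 1, control 3, DKO 1 or DKO 3 was left out, with adjusted p up to 0.0875. Lats2 differed by 0.24 ± 0.10 (SE; limma adjusted p 0.285), with every DKO value above every control value. The exact two-sided permutation p was 0.1 for both genes, the smallest that 3 against 3 allows. The positions of the probes and of the deleted exons were not used here, so the Lats2 row may lie outside the deleted part. Of 12 cortical markers 11 had a row, all 11 above the filter, and 9 of the 11 had a lower mean in DKO, with a median difference of -0.30. Among them the Notch effector Hes5 fell by 0.90 ± 0.09 (SE) on the log2 scale (limma adjusted p 0.00197), and 10 did not pass. An unadjusted p under 0.05 was reached by 9 of the 11, a level that 15.6% of all genes reached. Emx1 was at -0.30 (limma adjusted p 0.0994) and Pax6 at -0.07. Neurod6, Eomes, Neurog2 and Tbr1 were at -0.54, -0.44, -0.43 and -0.30, and Emx2 and Lhx2 at -0.18 and -0.17. The 2 markers with a higher mean in DKO were Nes at 0.24 (limma adjusted p 0.114) and Sox2 at 0.07. The summed signal of the cortical markers was 13.13 to 13.27 in control and 12.92 to 13.02 in DKO, so the groups did not overlap. Xist, which is expressed from the inactive X chromosome of females, was above 8 in controls 1 and 3 and in DKO 3 and below 5 in the other 3 arrays, so the sexes were not balanced between the groups. DKO 2 stood apart in its tissue markers: of the 6 arrays it was the lowest for 9 of 10 meningeal, 10 of 10 vessel and 5 of 5 erythroid markers. Of 13 markers of the hem and choroid plexus, DKO 2 was the highest for 7 and DKO 1 for 6. DKO 1 was also the highest for 5 of the 10 meningeal markers. Without DKO 2 the log2 difference was 0.83 for Intu and 0.39 for Ptch1, against 0.80 and 0.41 with it.

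Intu was at 6.60, 6.76 and 6.91 in controls 1 to 3 and at 7.58, 7.50 and 7.60 in DKO 1 to 3. All 3 DKO cortices lay above all 3 controls, and the gap between the nearest values was wider than the spread within either group. The means were 6.76 ± 0.15 (SD, n = 3) and 7.56 ± 0.05 (SD, n = 3), a log2 difference of 0.80 ± 0.09 (SE) with a 95% interval from 0.61 to 1.00. Among the arrays with high Xist the values were 6.60 and 6.91 in controls and 7.60 in DKO, and among those with low Xist 6.76 in the control and 7.58 and 7.50 in DKO. These are too few arrays to compare the sexes. Leaving out 1 array at a time moved the Intu difference between 0.73 and 0.88.

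**Figure D1:**
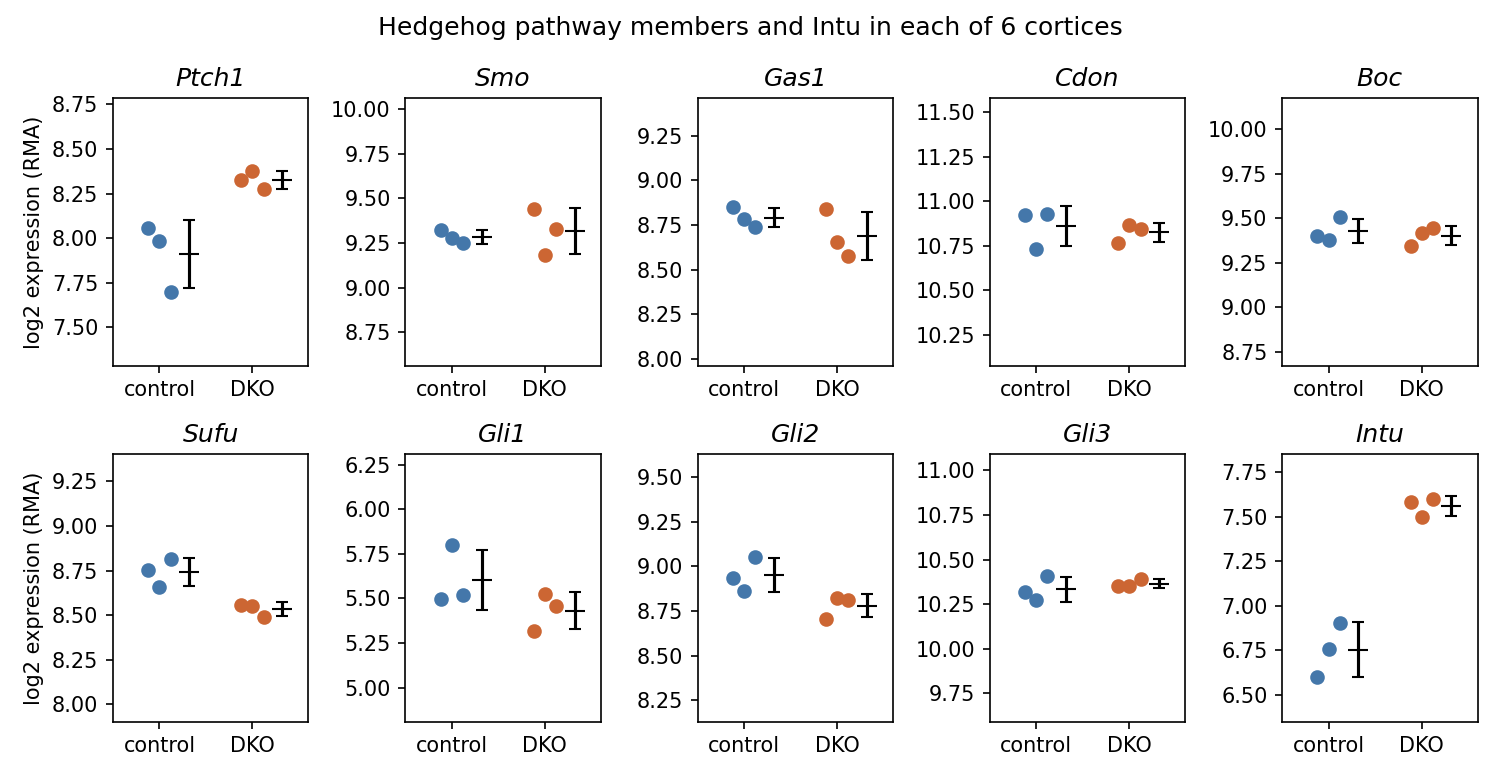
Log2 expression of the 10 genes in each array (points; blue control, orange DKO), with the mean and SD of each group in black (n = 3); every panel spans the same range in log2 units. Intu and Ptch1 are the genes whose DKO points all lie above the control points, with Intu at 7.50 to 7.60 against 6.60 to 6.91.

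The gene next but one to Intu differed in the same way. In the gene order of the RefSeq table (assembly GRCm38.p6), Intu is followed by Slc25a31, Hspa4l, Plk4 and Mfsd8. Hspa4l, which encodes a chaperone of the Hsp110 family, stood at 7.40, 7.31 and 7.46 in controls 1 to 3 and at 8.54, 8.44 and 8.48 in DKO 1 to 3. Its groups did not overlap, and the log2 difference was 1.09 ± 0.07 (SE), or 2.13-fold. Slc25a31, an ADP/ATP carrier best known from germ cells, lies between the pair and was under the filter in both groups, at 4.54 ± 0.05 (SD, n = 3) in control and 4.56 ± 0.03 (SD, n = 3) in DKO.

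None of the other tested neighbours passed the test. Plk4, the kinase that starts centriole duplication, had a log2 difference of 0.15 ± 0.08 (SE; limma adjusted p 0.414), and Mfsd8, a lysosomal membrane protein, of -0.11 ± 0.08 (SE; limma adjusted p 0.590). On the other side of Intu the nearest measured genes were 1700017G19Rik, Fat4, Ankrd50 and 5430434I15Rik, of which both Rik transcripts were under the filter. These were not all close to Intu: 1, 18, 23 and 29 genes of the RefSeq table lay between. On the Hspa4l side 0 to 3 genes lay between, so the near genes before Intu were largely not measured. Fat4, a giant cadherin of planar polarity, had a mean of 9.26 ± 0.13 (SD, n = 3) in control and of 8.96 ± 0.04 (SD, n = 3) in DKO. Its log2 difference was -0.30 ± 0.08 (SE), with a limma adjusted p of 0.110, although its groups did not overlap. Ankrd50, with ankyrin repeats, differed by -0.0041 ± 0.06 (SE; limma adjusted p 0.981). Of these 8 neighbours 5 were tested, and Hspa4l, whose difference was known when the set was chosen, was the 1 called at an adjusted p under 0.05, a threshold that 1.72% of all genes tested passed (1.36% higher and 0.359% lower in DKO).

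**Figure D2:**
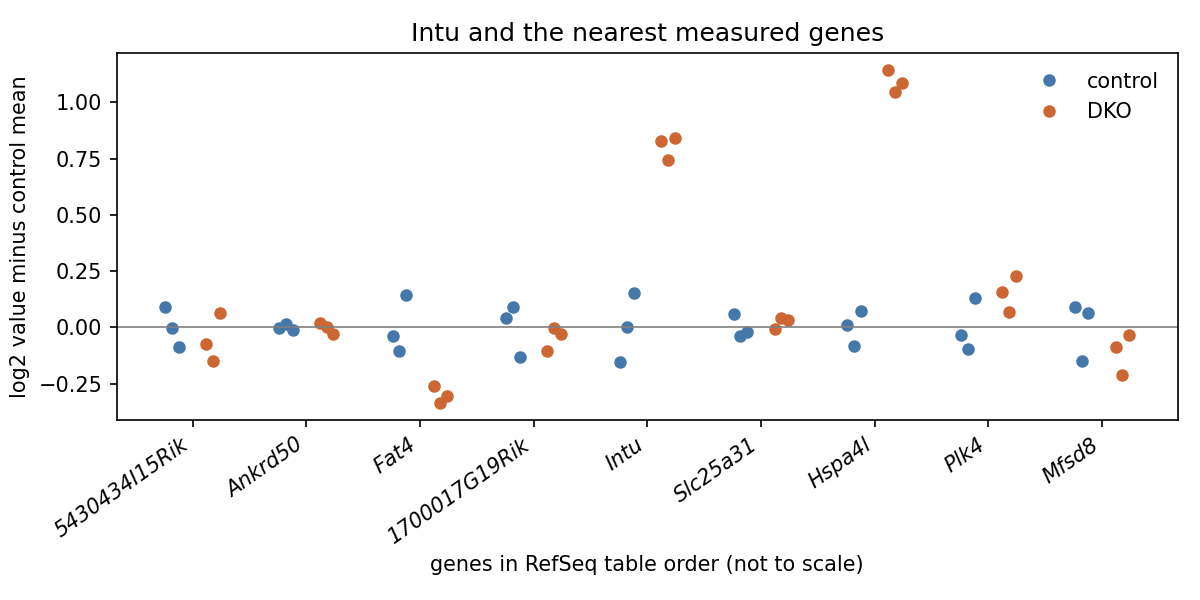
Log2 value of each array minus the control mean of that gene (blue control, orange DKO), for Intu and the 4 nearest genes with a row on each side, in RefSeq order and not to scale. Intu and Hspa4l lie about 0.80 and 1.09 above their control means in DKO, and Slc25a31 between them lies near 0.

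Promoter sequences were inspected because Intu and Hspa4l differed together. The RefSeq windows (GRCm38.p6) run from 250 bases before to 50 bases after the start of a gene, and 8 of the 10 genes had one. The 250 bases before the start are printed for Intu (chr3:40540517-40540766, plus strand) and Hspa4l (chr3:40745363-40745612, plus strand), and for Smo (chr6:29735247-29735496, plus strand) and Gpc4 (chrX:52164924-52165173, minus strand), a cell surface glypican. Smo and Gpc4 are shown for comparison because their windows held a match to the TEAD core, the short motif bound by the DNA-binding partners of YAP. Capitals mark that match, and a sequence without capitals holds none.
Intu: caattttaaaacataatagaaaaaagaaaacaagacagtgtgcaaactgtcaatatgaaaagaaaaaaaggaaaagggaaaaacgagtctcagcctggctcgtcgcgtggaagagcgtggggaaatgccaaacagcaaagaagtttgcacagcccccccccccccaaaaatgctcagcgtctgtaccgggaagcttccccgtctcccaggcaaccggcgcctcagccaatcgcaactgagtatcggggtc
Hspa4l: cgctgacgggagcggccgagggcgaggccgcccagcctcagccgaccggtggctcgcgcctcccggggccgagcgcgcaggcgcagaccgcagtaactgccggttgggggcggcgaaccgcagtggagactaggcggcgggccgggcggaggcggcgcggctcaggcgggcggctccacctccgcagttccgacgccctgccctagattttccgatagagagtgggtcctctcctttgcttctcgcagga
Smo: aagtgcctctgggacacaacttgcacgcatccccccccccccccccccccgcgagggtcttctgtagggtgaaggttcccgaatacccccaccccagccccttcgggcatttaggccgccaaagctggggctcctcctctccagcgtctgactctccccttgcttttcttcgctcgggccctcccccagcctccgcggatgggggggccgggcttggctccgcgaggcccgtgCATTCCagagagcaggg
Gpc4: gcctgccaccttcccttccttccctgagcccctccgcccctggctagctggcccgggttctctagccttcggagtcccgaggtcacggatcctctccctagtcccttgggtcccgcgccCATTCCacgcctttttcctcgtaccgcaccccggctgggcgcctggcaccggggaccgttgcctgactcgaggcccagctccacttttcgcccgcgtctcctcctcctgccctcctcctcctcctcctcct

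The motif searched for TEAD factors was GGAATG, which reads CATTCC on the other strand. The motif for Gli factors was GACCACCCA, also searched on both strands, and both searches covered the whole window of 300 bases. The TEAD core was present in 14.7% of 32851 promoter windows and the Gli consensus in 0.253%. Among the 8 windows of the pathway genes and Intu, Smo held 1 TEAD core, starting 17 bases before the start site on the minus strand of the window, and 0 held the Gli consensus. In Gpc4 the TEAD core began 131 bases before the start site. These letters were not in the windows of Intu, Hspa4l or Ptch1. They were also absent from the windows of Lrp2 and Bcl2, which like Gpc4 were called higher in DKO (below). The Intu window had 53.7% G and C and the Hspa4l window 74.7%.

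Ptch1, the Hedgehog receptor and a direct target of the pathway, had a higher mean in DKO but was not called in the fit over all genes. It stood at 8.05, 7.98 and 7.70 in controls 1 to 3 and at 8.33, 8.38 and 8.28 in DKO 1 to 3. The groups did not overlap, as for 21.6% of all genes tested, and control 3 was the lowest array. The log2 difference was 0.41 ± 0.10 (SE) with a 95% interval from 0.19 to 0.63. Without control 3 the difference was 0.31.

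Gli1, the other usual readout, was not higher in DKO. Its values were 5.49, 5.80 and 5.52 in controls 1 to 3 and 5.32, 5.52 and 5.45 in DKO 1 to 3, with control 2 above all others and overlapping groups. The log2 difference was -0.17 ± 0.10 (SE), and its 95% interval from -0.39 to 0.05 held only values below the interval of Ptch1. Without control 2 the difference was -0.08. The Gli1 row was dim, with means of 5.60 and 5.43 against a filter at 5.02.

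The signal transducer and the co-receptors had small differences with overlapping groups. Smo stood at 9.32, 9.28 and 9.25 in controls 1 to 3 and at 9.44, 9.18 and 9.33 in DKO 1 to 3, so that the DKO arrays lay on both sides of the controls. Its log2 difference of 0.03 (95% interval -0.14 to 0.21) turned to -0.03 without DKO 1 and was 0.10 without DKO 2. Gas1, a membrane-anchored protein that binds Hedgehog ligands, stood at 8.85, 8.78 and 8.74 in controls 1 to 3 and at 8.84, 8.66 and 8.57 in DKO 1 to 3. Its groups overlapped through DKO 1, and the log2 difference was -0.10 with a 95% interval from -0.28 to 0.08. It became -0.17 without DKO 1 and -0.04 without DKO 3. Cdon and Boc, related immunoglobulin-domain co-receptors, gave -0.04 (95% interval -0.21 to 0.13) and -0.03 (95% interval -0.18 to 0.12) with overlapping groups, the value of Boc turning to 0.01 without control 3 and to 0.0032 without DKO 1. Leaving out 1 array moved Cdon between -0.10 and -0.0014. The intervals of these 4 genes reach from -0.28 to 0.21, so they do not show that the groups were equal.

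Sufu, which restrains the Gli proteins, was slightly lower in DKO. The row used stood at 8.75, 8.66 and 8.81 in controls 1 to 3 and at 8.56, 8.55 and 8.49 in DKO 1 to 3, without overlap. The log2 difference was -0.21 ± 0.07 (SE; 95% interval -0.36 to -0.06). Sufu had 1 more row, which was dimmer and gave -0.09 with overlapping groups.

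Gli2, the main activator of the family, was at 8.94, 8.86 and 9.05 in controls 1 to 3 and at 8.71, 8.82 and 8.81 in DKO 1 to 3. Every DKO array lay below every control array, by a narrow margin, and the log2 difference was -0.17 ± 0.07 (SE; 95% interval -0.33 to -0.0043). Gli3, the main repressor, was at 10.32, 10.27 and 10.41 in controls 1 to 3 and at 10.35, 10.35 and 10.39 in DKO 1 to 3. The Gli3 values of DKO lay within the range of the controls, and the log2 difference was 0.03 (95% interval -0.11 to 0.17), or 0.0021 to 0.07 when 1 array was left out.

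**Figure D3:**
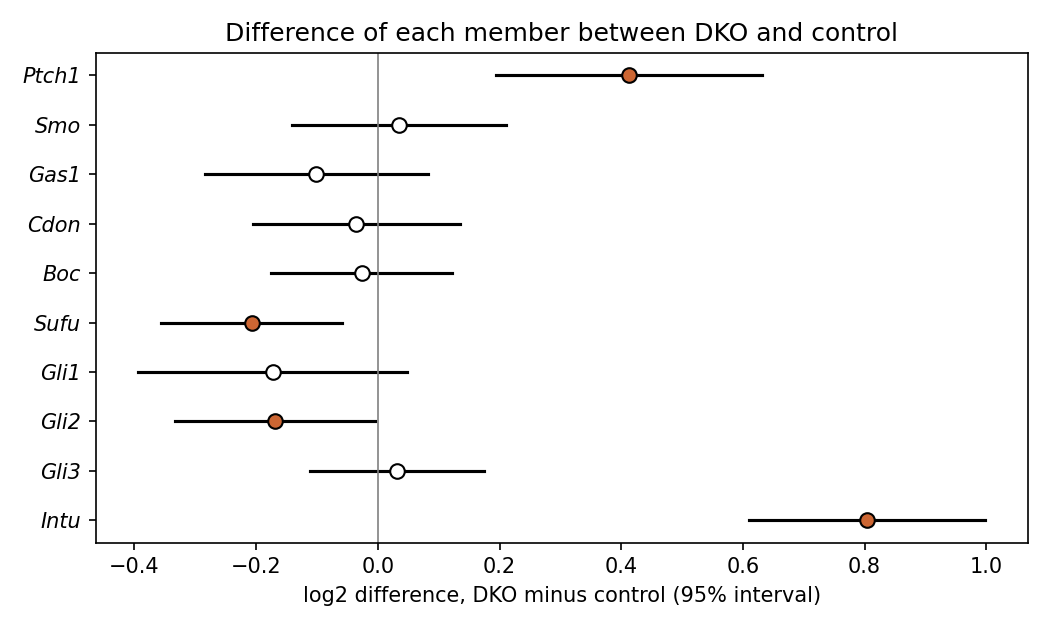
Log2 difference of each gene, DKO minus control, with its 95% interval from the fit (n = 3 per group); filled points are genes whose groups do not overlap. Intu at 0.80 and Ptch1 at 0.41 lie to the right, Sufu at -0.21 and Gli2 at -0.17 to the left, and the intervals of the other 6 genes include 0.

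Over the 10 genes, 4 had a higher and 6 a lower mean in DKO, and the median difference was -0.03, as over all genes tested (-0.03). Groups did not overlap for 4 of the 10 (Intu and Ptch1 higher, Sufu and Gli2 lower), against 21.6% of all genes tested. In the fit over all genes 1 of the 10, Intu, passed the threshold of an adjusted p under 0.05, against 1.72% of all genes. Nothing is read from the count of calls or from the count without overlap, since Intu is in both and was selected on this contrast. Ptch1 passed as well with a variance trend or with a stricter filter on dim genes, but not in the main fit or the 10 other alternatives.

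The genes whose pattern over the 6 arrays was most like that of Intu were Bicd2, Veph1, Igsf9b, Ccn1 and Slit2. Their Pearson correlations with Intu over 6 arrays were 0.995, 0.993, 0.993, 0.993 and 0.992, and the points share the division into control and DKO, which any gene with a clear difference follows. Bicd2 encodes a dynein adaptor, Ccn1 a matricellular protein that is a well-known YAP target, and Slit2 a secreted guidance cue. Hspa4l ranked 39 by the same measure, with a correlation of 0.978.

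Other genes of the pathway and of cilia were taken from 8 lists. Without the 10 genes described so far they held 98 tested genes, of which 4 rose, 0 fell and the median difference was -0.0030. The share that passed was 4.08%, against 1.72% of all genes tested, and 18 of the 98 had an unadjusted p under 0.05, a level that 15.6% of all genes reached. The lists were chosen with earlier results of these data known, so nothing is read from these shares. Lrp2, Gpc4, Bcl2 and Foxj1 were the 4, and Lrp2 and Gpc4 were the ones that kept their calls in each of the 12 alternative fits.

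Both of the clear increases came from the list of further receptors at the cell surface, so what they share was set by the list. Lrp2, the endocytic receptor megalin, which acts as a Sonic hedgehog co-receptor in the ventral forebrain, stood at 5.50, 5.74 and 5.54 in controls 1 to 3 and at 8.01, 7.92 and 7.84 in DKO 1 to 3. The arrays of the groups lay far apart, and the log2 difference was 2.33 ± 0.08 (SE; limma adjusted p 9.21e-06). Gpc4, a glypican that carries heparan sulphate chains, stood at 8.71, 8.66 and 8.82 in controls 1 to 3 and at 9.72, 9.36 and 9.71 in DKO 1 to 3. DKO 2 was the lowest DKO array and still lay above every control, and the difference was 0.87 ± 0.10 (SE; limma adjusted p 0.00445). Without DKO 2, whose tissue markers stood apart, it was 0.98 for Gpc4 and 2.33 for Lrp2. Of the 5 tested genes of this list, 2 rose and 3 did not pass, namely Gpc3, Gpc5 and the ciliary receptor Gpr161. Hhip, a decoy receptor and pathway target, was under the filter at 4.34 in control and 4.29 in DKO.

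Hedgehog ligands and the proteins that release them held no call. Of 7 tested genes 0 passed the limma test and 3 had an unadjusted p under 0.05 (15.6% of all genes), while Shh was under the filter at 4.93 in control and 4.89 in DKO. Scube2, which helps to release the ligands, had the smallest p, with 0.28 ± 0.09 (SE; limma adjusted p 0.178). Ihh, the Indian hedgehog ligand, followed with -0.21 ± 0.07 (SE; limma adjusted p 0.206). These ligand genes had a median difference of -0.07.

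Genes that carry the signal from Smo to the Gli proteins also held no call. Of 19 tested, 0 passed the limma test, 6 had an unadjusted p under 0.05 (15.6% of all genes) and 15 had a lower mean in DKO, with a median of -0.06 against -0.03 over all genes. Efcab7, a ciliary scaffold of the Evc complex, gave 0.27 ± 0.08 (SE; limma adjusted p 0.130), and Stk36, the vertebrate homologue of the fly kinase fused, gave -0.20 ± 0.06 (SE; limma adjusted p 0.149). All values of the list lay between -0.21 and 0.27.

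Of 11 tested target genes 1 rose, 0 fell and 10 did not pass. Bcl2, the apoptosis inhibitor, was at 9.05, 8.95 and 9.17 in controls 1 to 3 and at 9.54, 9.45 and 9.40 in DKO 1 to 3, a difference of 0.41 ± 0.08 (SE; limma adjusted p 0.0373). Its call did not hold when any 1 array was left out (adjusted p 0.0542 to 0.146), with the replicate number as a block (0.0949), with no filter (0.0509) or with the mean of its rows (a difference of 0.25, adjusted p 0.121). The list includes Gli1 and Ptch1, and its median was 0.01. The ventral patterning targets Nkx2-1 and Olig2 had differences of -0.18 (limma adjusted p 0.429) and -0.31 (limma adjusted p 0.376). Foxa2 and Nkx6-1 were at -0.16 and -0.12, while Nkx2-2 and Nkx6-2 were at 0.01 and 0.03. Mycn and Ccnd1 were at 0.17 (limma adjusted p 0.334) and 0.12 (limma adjusted p 0.535). Of the 11 tested targets, 6 had a higher and 5 a lower mean in DKO.

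Structural genes of cilia other than Intu held no call. The other CPLANE genes Fuz, Wdpcp, Cplane1 and Cplane2 had differences of 0.08, -0.01, 0.0041 and 0.12, and none passed the limma test or had an unadjusted p under 0.05. Of 40 genes of intraflagellar transport, the transition zone and the basal body, 0 passed the limma test and 2 had an unadjusted p under 0.05, a smaller share than the 15.6% of all genes, with differences from -0.23 to 0.26. The 2 were Ift57, a subunit of the transport particle, at 0.26 ± 0.07 (SE; limma adjusted p 0.115), and Cep164, a protein of the distal appendages of the mother centriole, at -0.23 ± 0.07 (SE; limma adjusted p 0.177). The genes next in order were Ift46, another subunit, at -0.12, and Cep290, a transition zone protein, at 0.13.

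Motile cilia genes included 1 increase among 14 tested. Foxj1, the transcription factor that switches on motile ciliogenesis, was at 6.45, 6.60 and 6.50 in controls 1 to 3 and at 6.92, 6.95 and 6.88 in DKO 1 to 3, a difference of 0.40 ± 0.06 (SE; limma adjusted p 0.0199). Without control 2 it still passed, but leaving out any other single array ended the call (adjusted p 0.0504 to 0.109), as did the replicate number as a block (0.0575). The other 13 genes did not pass, and 11 of the 14 had a higher mean in DKO. Gmnc had the largest difference of the 14, at 0.73 ± 0.24 (SE; limma adjusted p 0.206), with overlapping groups. Of the 14, 4 had an unadjusted p under 0.05, a level that 15.6% of all genes reached.

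**Figure D4:**
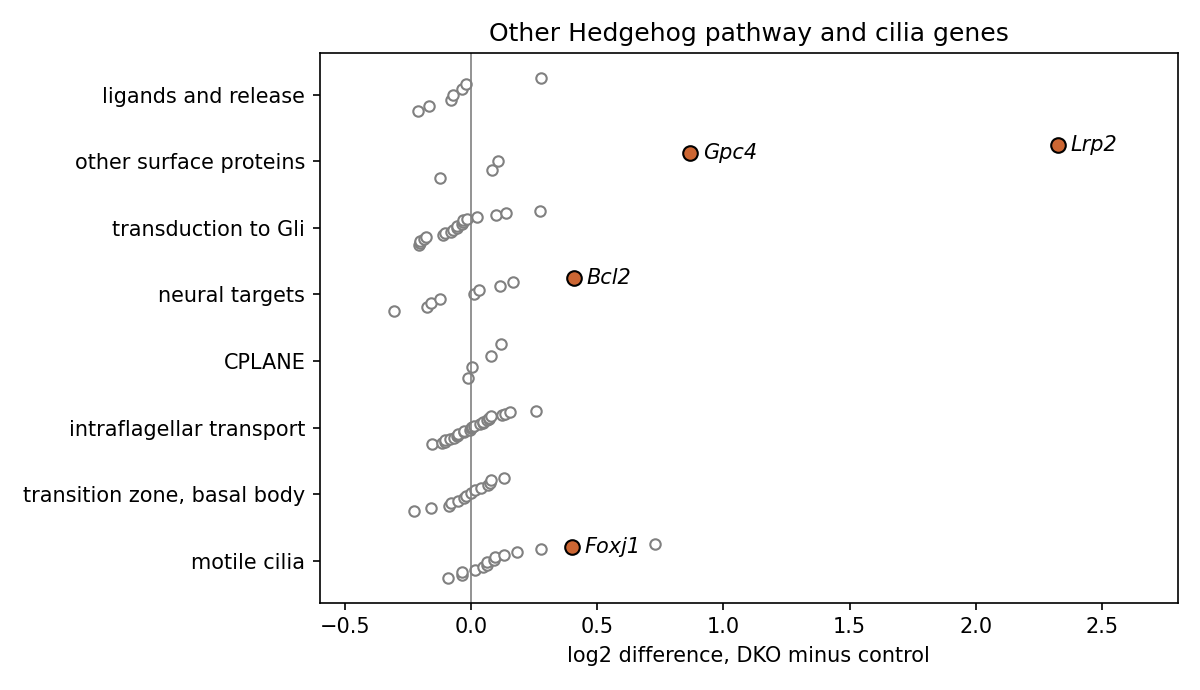
Log2 difference, DKO minus control, of each tested gene of the 8 lists (open points did not pass, filled points had a limma adjusted p under 0.05), without the 10 genes shown before. Lrp2 at 2.33 and Gpc4 at 0.87 stand to the right of the other genes, followed by Gmnc at 0.73, which did not pass. The genes of intraflagellar transport and of the transition zone lie within -0.23 and 0.26.

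Markers of neighbouring tissues were read beside these genes. For the choroid plexus and the cortical hem, the dorsal midline next to the cortex, 13 of 15 markers had a row, and their summed signal was 9.96 to 10.30 in control and 10.51 to 11.40 in DKO on the log2 scale. Of the 12 tested, all 12 had a higher mean in DKO and 9 had an unadjusted p under 0.05, against 15.6% of all genes. Ttr, Lmx1a and Foxj1 were called, against 1.72% of all genes tested, and Foxj1 stands on both this list and that of motile cilia. Markers of the ventral telencephalon, where Hedgehog signalling is strongest, had lower means in DKO for all 10 tested genes, with a median of -0.22 and 0 calls (3 at an unadjusted p under 0.05, against 15.6% of all genes). Nkx2-1 and Olig2 stand on both this list and that of the target genes. The summed signal of the ventral markers was 10.62 to 11.12 in control and 10.43 to 10.73 in DKO, so the groups overlapped. Control 2, the highest array for Gli1, was also the highest for Nkx2-1, Olig2, Dlx2, Dlx5, Dlx6, Gsx2, Gad2 and Isl1. For Lhx6 and Gad1 it was not. Vessel markers had lower means in DKO for all 10 tested genes, with a median of -0.23, 0 calls and 3 at an unadjusted p under 0.05, and their summed signal was 10.93 to 11.10 in control and 10.40 to 10.92 in DKO. Of 10 meningeal, 5 erythroid and 6 microglial markers tested 0 passed the limma test and 0 had an unadjusted p under 0.05, with medians of -0.14, -0.10 and -0.14. Their summed signals overlapped between the groups, at 11.11 to 11.47 in control and 10.79 to 11.57 in DKO for the meninges. The cortical markers, given above, were lower in sum in every DKO array. The part of these tissues in the values of Lrp2, Gpc4, Foxj1, Ptch1, Gli1, the other target genes and Intu was not tested. In bulk tissue, fewer cells of a type and less RNA per cell cannot be told apart.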

How the data were processed

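Total RNA (100 ng per embryo) of 6 cortices was labelled as sense-strand cDNA for whole-transcript arrays, per the labels' protocols. The deposited log2 values were made by RMA, per the submitters' processing notes; its version and the probes' build are not given in the sources used here. The method equalises the distributions of the arrays, so a shift common to all genes cannot be seen. Rows with exactly 1 symbol in the platform annotation were used, and for genes with several rows the one with the highest mean. Genes whose mean fell below the 25th percentile of these rows (5.02) were left out. DKO and control were compared across all genes with limma 3.58.1 in R 4.3.3 (lmFit, eBayes, two-sided, Benjamini-Hochberg, no covariate); the script was tested on simulated data.

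The genes and lists were chosen with earlier results of these data known. Named were the 10 genes, Lats1 and Lats2, 4 measured neighbours of Intu per side, called list genes (or, with none called, the 2 with the smallest p) and the 5 genes most correlated with Intu. Genes named beyond this rule (Shh, Hhip, Gmnc, the uncalled targets, the CPLANE genes, the uncalled receptors and the markers) were chosen after their values were seen. Rows of list genes with older symbols were found through RefSeq synonyms. Promoters came from RefSeq windows and were searched for exact matches on both strands. Sample pairs were compared before use; correlations between arrays lay between 0.978 and 0.994. Alternatives were other filters, a variance trend, the replicate number as a block, the mean of rows, repeated quantile normalization and leaving out each array.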

Additional observations from a re-analysis of the deposited data

How the results depend on the processing

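The Intu difference stayed between 0.73 and 0.88 under all 12 alternatives. The filter, trend and block settings leave a difference as it is, and without 1 array Gli1 ranged from -0.23 to -0.08 and Gas1 from -0.17 to -0.04, while Smo (-0.03 to 0.10) and Boc (-0.05 to 0.01) changed sign. The count of the 10 genes past the threshold was 2 with the stricter filter, which left out Gli1, and 2 with a variance trend, and 1 in each fit without 1 array. The other pathway and cilia genes past it numbered 2 to 3 in those fits. Intu, which was selected on this contrast, was in every count of the 10 genes, so nothing is read from those counts. Over all genes, 121 to 260 rose and 11 to 54 fell without 1 array. Genes that fell numbered 134 with the stricter filter, 162 with a variance trend and 24 with the replicate block. The replicate block left Intu at 0.80 and ended the calls of Bcl2 and Foxj1, while Gmnc passed. Same-numbered samples did not clearly pair: the correlations of their deviations were -0.10, 0.21 and 0.15, and control 1 correlated best with DKO 3. Detection calls were not used here, so dim rows such as Gli1 and Shh have no stated background.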
